A study of Homo sapiens with 12 samples.

Results

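The genes described here lie around LEO1 on human chromosome 15: TMOD3, TMOD2, LYSMD2, SCG3, MAPK6, GNB5, MYO5C, DMXL2, AP4E1 and BCL2L10. They were taken by name from a 2 Mb window (GRCh38) that opens just before AP4E1, and are 10 of the 60671 genes in the count table and 10 of the 58 genes annotated in that window. RNA was measured in BJ-5ta, a line of human skin fibroblasts immortalised with telomerase, as wild-type (WT) cells and as 1 clone without LEO1 (ΔLEO1, labelled Leo1). The clone was made with Cas9 and a pair of guides aimed at the first exons of LEO1. Its LEO1 protein was below detection by Western blot, per the methods. Both genotypes were grown in 10% serum, or kept for 10 days in 0.1% serum, which takes fibroblasts out of the cell cycle. Each of the 4 groups (WT and ΔLEO1 in 10% serum, WT and ΔLEO1 in 0.1% serum) had 3 libraries made from polyadenylated RNA. Synthetic ERCC transcripts were used at the same dilution for each sample, per the methods. Whether their amount was set per cell or per mass of RNA is not given. The labels do not say whether the 3 libraries of a group came from separate cultures, and there was a single clone, so p-values measure the spread between these libraries, and the effect of losing LEO1 cannot be told apart from what else is particular to the clone.

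LEO1 is a subunit of the PAF1 complex, which travels with RNA polymerase II along transcribed genes. A deletion made with a pair of guides removes DNA, and genes that overlap the cut or lie beside it are the first place to look for effects on the locus itself. The neighbours do unrelated things. TMOD3 and TMOD2 encode tropomodulins, which cap the pointed ends of actin filaments. TMOD3 is made in most tissues and TMOD2 mainly in neurons. MAPK6 encodes the atypical MAP kinase ERK3, and GNB5 a G protein beta subunit that pairs with RGS proteins. DMXL2 encodes a protein of proton pump assembly, AP4E1 a subunit of the AP-4 adaptor that sorts cargo in the Golgi, and MYO5C a class V myosin best known from epithelial cells. SCG3 is a granin of secretory granules, BCL2L10 a member of the BCL2 family, and LYSMD2 a protein with a LysM domain.

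On GRCh38 with the GENCODE v29 annotation, LEO1 (ENSG00000166477) runs on the minus strand from 51938025 to 51971806. Its first exon lies at 51971688 to 51971806 and its second at 51965749 to 51966504, with 5183 bases of intron between them. TMOD3 (ENSG00000138594, plus strand, 51829628 to 51947295) ends inside LEO1. The gene spans shared 9271 bases on opposite strands, but the annotated exons shared 4. MAPK6 (ENSG00000069956, plus strand, 51952106 to 52067372) overlapped LEO1 by 19701 bases of span and by no exon. Of its 8 annotated transcripts 1 started inside LEO1, and the other 7 started at 52004180 or beyond. The first and second exons of LEO1 lie within the MAPK6 span and outside that of TMOD3. The remaining neighbours did not overlap LEO1. On the side of its 3′ end lie TMOD2 (ENSG00000128872, plus strand, 51751561 to 51816368), LYSMD2 (ENSG00000140280, minus strand, 51723011 to 51751585), SCG3 (ENSG00000104112, plus strand, 51681353 to 51721031), DMXL2 (ENSG00000104093, minus strand, 51447711 to 51622833) and AP4E1 (ENSG00000081014, plus strand, 50908672 to 51005900). On the side of its 5′ end lie BCL2L10 (ENSG00000137875, 52109263 to 52112775), GNB5 (ENSG00000069966, 52115105 to 52191369) and MYO5C (ENSG00000128833, 52192322 to 52295798), all on the minus strand. The gap to LEO1 was 121657 bases for TMOD2 and 186440 bases for LYSMD2, so neither is a direct neighbour of the deletion, and TMOD3 stands between them and LEO1.

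TMOD2 and LYSMD2 start head to head. Their first exons overlapped by 25 bases in GENCODE, and of the 3 RefSeq starts of LYSMD2 the one farthest upstream lay 146 bases from that of TMOD2. The promoter windows of these 2 starts, each 250 bases before to 50 after the start, shared 245 bases, and the windows of the other 2 LYSMD2 starts lay inside the gene and shared none. The sequences are shown because both genes of this pair were lower in ΔLEO1 relative to the other genes in 10% serum, while TMOD3, the other tropomodulin, was not. They are RefSeq windows on GRCh38.p14, written 5′ to 3′ on the plus strand, where TMOD2 and TMOD3 are transcribed, with every GC box (GGGCGG on either strand) in capitals.
TMOD2 promoter, chr15:51751347-51751646: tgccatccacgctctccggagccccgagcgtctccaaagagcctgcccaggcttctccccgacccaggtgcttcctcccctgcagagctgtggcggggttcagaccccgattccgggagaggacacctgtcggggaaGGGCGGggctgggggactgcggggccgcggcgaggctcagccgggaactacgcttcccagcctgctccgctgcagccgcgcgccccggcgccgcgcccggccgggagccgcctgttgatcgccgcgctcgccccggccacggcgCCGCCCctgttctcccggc
TMOD3 promoter, chr15:51829403-51829702: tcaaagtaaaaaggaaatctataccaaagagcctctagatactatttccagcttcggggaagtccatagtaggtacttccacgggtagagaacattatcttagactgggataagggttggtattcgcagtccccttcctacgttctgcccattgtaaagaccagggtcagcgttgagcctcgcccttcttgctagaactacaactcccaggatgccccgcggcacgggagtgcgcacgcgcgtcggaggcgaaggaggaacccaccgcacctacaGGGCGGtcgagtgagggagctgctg
Shared first-exon stretch of TMOD2 and LYSMD2, chr15:51751561-51751585: gcgcgccccggcgccgcgcccggcc
The TMOD2 window held 36 CpG dinucleotides and 75.3% G and C, the TMOD3 window 18 and 54.3%, and the median of 35116 RefSeq promoters of this length was 14 CpG. A CpG count like that of TMOD2 was also found at neighbours that were not called in 10% serum, with 36 at MAPK6, 38 at DMXL2 and up to 42 at GNB5. TMOD2 had 2 GC boxes and TMOD3 1, and 45.0% of all promoters held at least 1. Neither window held a CCAAT box (CCAAT, in 34.6% of promoters), a TATA box (TATAAA, in 11.5%), an E-box (CACGTG, in 7.26%) or a cAMP response element (TGACGTCA, in 1.85%) on either strand. Of the 10 neighbours 9 had a window in this table, all but BCL2L10.

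The 12 libraries held 26240632 to 45315560 counts in genes, and ERCC transcripts made up 0.625% to 3.24% of all counts. The highest-numbered library of each group stood apart from the other 2: its counts differed from theirs by a chi-square of 66.2 to 144 per gene, against 3.04 to 12.1 between the lower-numbered pair. Fibroblast markers fitted the label, with 10 of 10 tested and summed levels of 52500 to 76200 CPM, counts scaled to a gene total of 1000000 per library. Set against the other genes, 1 of the 10 was called higher in ΔLEO1 and 3 lower in 10% serum, where 39.5% of all genes were called. In 0.1% serum 1 was called higher and 4 lower, where 33.0% of all genes were called. Set against the ERCC counts, none was called. None of the 4 endothelial markers passed the filter on low counts, and of the 8 neuronal and neuroendocrine markers 4 passed it (ENO2, SYT1, TUBB3 and SYP) while SNAP25 and CHGA had no count in any library. Summed epithelial markers were higher in ΔLEO1 than in WT, at 841 to 1140 against 318 to 462 CPM in 10% serum and 509 to 585 against 165 to 180 CPM in 0.1% serum. This sum was carried by KRT18. KRT8 went the other way, with means of 24.5 CPM in ΔLEO1 against 57.1 in WT in 10% serum and 34.3 against 75.2 in 0.1% serum. Summed muscle markers were 25.2 to 157 against 4.39 to 11 and 7.25 to 10.9 against 1.78 to 2.44 CPM, mostly through ACTC1 (means of 61.4 against 3.57 and 7.88 against 0.611 CPM), with MYOG at 0. Summed immune markers were 3.11 to 8.22 against 2.01 to 2.25 CPM and 6.63 to 9.01 against 2.35 to 2.96 CPM, through PTPRC, which was called higher in both sera. CD68 was called lower in 0.1% serum when set against the other genes (log2 fold change −0.92, adjusted p = 0.0289, edgeR's likelihood ratio test). CD14 was not called, and CD3E did not pass the filter. The part of all these markers in the results was not tested. In these bulk libraries fewer cells with a transcript and less transcript per cell cannot be told apart. LEO1 itself checked the labels. Its level was 23.3, 23.9 and 23.3 CPM in WT in 10% serum, against 1.37, 0.794 and 1.24 CPM in ΔLEO1. In 0.1% serum it was 29.7, 30.4 and 20.4 CPM in WT and 0.661, 1.44 and 1.39 CPM in ΔLEO1. The genotypes did not overlap in either serum.

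Differences were tested with edgeR's likelihood ratio test with Benjamini-Hochberg adjustment over the 13236 genes that had more than 1 CPM in at least 3 libraries, and a gene was called at an adjusted p under 0.05. As in the study, libraries were scaled by their ERCC counts, which sets a gene against the added RNA. This scaling put the median of all genes in ΔLEO1 at 0.35 above WT in 10% serum and 0.27 in 0.1% serum (log2 fold change), and standard errors near 0.5. Values scaled by TMM factors of the genes (gene-scaled below), which set a gene against the other genes, are therefore given beside them. Of the 10 neighbours 7 were tested. SCG3, MYO5C and BCL2L10 were too low.

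TMOD2 had the clearest change of the neighbours. In 10% serum its counts were 189, 202 and 179 in WT and 22, 35 and 48 in ΔLEO1. As levels these were 5.18, 5.16 and 4.56 CPM in WT and 0.567, 0.772 and 1.08 CPM in ΔLEO1. Every ΔLEO1 library was below every WT library, as for 29.6% of all genes tested, and the means were 4.97 ± 0.349 and 0.807 ± 0.258 CPM (SD, n = 3). Per ERCC count TMOD2 was 5.12-fold lower in ΔLEO1 (log2 fold change −2.36, SE 0.52, adjusted p = 0.000343). Gene-scaled, it was −2.62 (SE 0.27, adjusted p = 3.01e-21), which is 6.13-fold lower. Of the 13236 genes tested, 346 had a lower gene-scaled log2 fold change than TMOD2. An exact two-sided permutation test of the CPM of TMOD2 alone gave p = 0.1, the smallest that 3 libraries against 3 allow. Left out in turn, no library removed the call on either scaling. The log2 fold change stayed between −2.60 and −2.10 with ERCC scaling and between −2.89 and −2.42 gene-scaled. With ERCC scaling TMOD2 was not called when the similar pair of libraries of each group was summed (log2 fold change −2.14, adjusted p = 0.0686). The summed CPM of the 8 neuronal and neuroendocrine markers was 50.5 to 74.2 in WT in this serum. In ΔLEO1 the sum ran from 48.4 to just above the lowest WT value, so the ranges overlapped only at the bottom of the WT range. Within that list TUBB3 and SYP were called higher in ΔLEO1 with ERCC scaling (log2 fold change 2.29 and 2.01, adjusted p = 0.000291 and 0.0188). SYT1 was called lower on the gene scale alone (−1.07, adjusted p = 0.00382), and ENO2 was not called. Their part in the result was not tested.

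**Figure D1:**
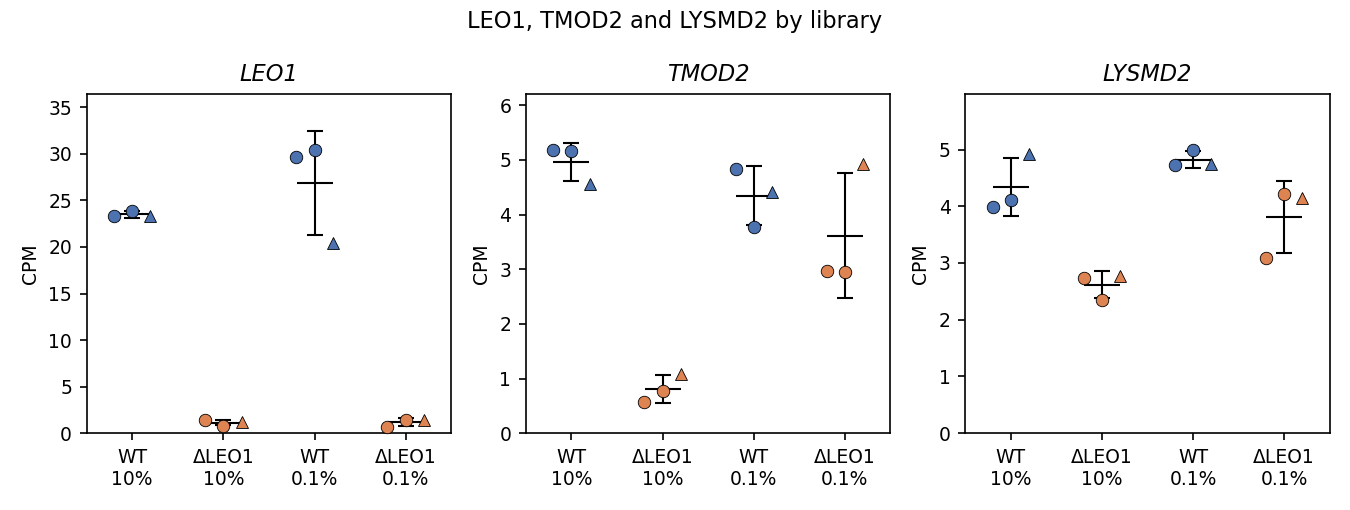
Level of LEO1, TMOD2 and LYSMD2 in CPM in each library of WT (blue) and ΔLEO1 (orange) cells in 10% and 0.1% serum. Triangles mark the highest-numbered library of each group, and the bar and whiskers are the mean and SD of 3 libraries. TMOD2 lies at 0.567 to 1.08 CPM in ΔLEO1 in 10% serum and at 2.95 to 5.18 CPM in the other 3 groups.

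TMOD2 was the 1 neighbour of the 7 tested that was called in 10% serum with ERCC scaling, and was lower in ΔLEO1. Over all genes tested 8.84% were called, 4.64% as lower. With gene scaling 2 neighbours were called, both lower, where 39.5% of all genes were called and 21.8% as lower. The added gene was LYSMD2, which starts opposite TMOD2. Its counts were 145, 161 and 193 in WT and 106, 106 and 123 in ΔLEO1, or 3.98, 4.11 and 4.92 CPM against 2.73, 2.34 and 2.77 CPM. The genotypes did not overlap, and 29.6% of all genes tested were likewise lower in every ΔLEO1 library than in every WT library. Its gene-scaled log2 fold change was −0.74 (SE 0.18, adjusted p = 0.000216), 1.67-fold lower, and it remained called with each library left out, between −0.80 and −0.64. With ERCC scaling it was −0.36 (SE 0.51, adjusted p = 0.73), so its call depended on the scaling. Both genes of the head-to-head pair were thus lower in ΔLEO1 relative to the other genes, TMOD2 by more.

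TMOD3, which overlaps the 3′ part of LEO1 and not its first exons, was not called in 10% serum. Its level was 152, 145 and 164 CPM in WT and 183, 192 and 177 CPM in ΔLEO1. All 3 ΔLEO1 libraries were above all 3 WT libraries, as were 29.8% of all genes tested. On the gene scale its log2 fold change came to 0.25 (SE 0.11, adjusted p = 0.0561), with a 95% interval of 0.04 to 0.47 before adjustment. It was called when any of 3 libraries was left out, WT 3, WT 9 or ΔLEO1 12 (smallest adjusted p = 0.0336), and with the quasi-likelihood test on the same scaling. Without the highest-numbered library of each group it was also called, at 0.32 (adjusted p = 4.87e-06). That fit keeps only the similar pair of each group, so its spread is that of the libraries most alike. The share of all genes called in it, or in the other refits, is not given. With all libraries and ERCC scaling the value of TMOD3 was 0.61 (SE 0.45, adjusted p = 0.509). Beside the 4 exonic bases shared with LEO1, TMOD3 shares exonic bases with antisense transcripts, 510 with the largest of them, and whether the counting used strand is not given in the sources used here.

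MAPK6, on the other side of LEO1 and with a span that covers its first exons, did not pass the test either with all libraries. Its level was 64.6, 60.6 and 69.5 CPM in WT and 70.0, 75.2 and 74.8 CPM in ΔLEO1 in 10% serum. Again the ΔLEO1 libraries were all higher, as for 29.8% of all genes tested. The gene-scaled log2 fold change of MAPK6 was 0.17 (SE 0.11, adjusted p = 0.219). In the fit of the similar pairs, without the highest-numbered libraries, it was called at 0.20 (adjusted p = 0.0168), again with no share of all genes beside it. GNB5, DMXL2 and AP4E1 lay between 0.02 and 0.21 (log2, gene-scaled), with adjusted p-values from 0.399 to 0.921. GNB5 was 59.1 ± 0.468 CPM in WT and 60.1 ± 4.5 CPM in ΔLEO1, with a 95% interval of the log2 fold change from −0.20 to 0.24 before adjustment. The 7 neighbours tested had a median gene-scaled log2 fold change of 0.17 in 10% serum, beside 0 for all genes.

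In 0.1% serum no neighbour was called with ERCC scaling in edgeR's likelihood ratio test, where 7.43% of all genes tested were, nor with the quasi-likelihood test or DESeq2 on the same scaling, and none had an unadjusted p under 0.05. TMOD2 no longer separated the genotypes. Its counts were 163, 99 and 148 in WT and 103, 96 and 174 in ΔLEO1, or 4.84, 3.77 and 4.42 CPM against 2.96, 2.95 and 4.93 CPM. ΔLEO1 library 12 was above every WT library and the other 2 were below them. Gene-scaled, its log2 fold change came to −0.26 (SE 0.24, adjusted p = 0.437), and with ERCC scaling it was 0.15 (SE 0.51, adjusted p = 0.927). With the highest-numbered library of each group left out the gene-scaled value was −0.50 (adjusted p = 0.00782), still far from the value in 10% serum. The share of all genes called in that fit of the similar pairs is not given.

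LYSMD2 was 4.72, 4.99 and 4.75 CPM in WT and 3.08, 4.21 and 4.14 CPM in ΔLEO1 in 0.1% serum. The genotypes did not overlap, as for 41.6% of all genes tested, but the gene did not pass the test (gene-scaled log2 fold change −0.33, SE 0.18, adjusted p = 0.155). TMOD3 was 206, 202 and 178 CPM in WT and 163, 162 and 188 CPM in ΔLEO1, with overlap (gene-scaled −0.18, SE 0.11, adjusted p = 0.221; ERCC 0.10, adjusted p = 0.941). GNB5 was the 1 neighbour called with gene scaling, where 33.0% of all genes were and 15.4% as higher. Its level was 54.5, 50.1 and 46.7 CPM in WT and 63.0, 59.9 and 62.1 CPM in ΔLEO1, without overlap, as for 41.6% of all genes tested in either direction. On the gene scale its log2 fold change came to 0.31 (SE 0.11, adjusted p = 0.0222). The call was lost without WT library 8, WT library 9 or ΔLEO1 library 10, at an adjusted p of up to 0.115. GNB5 shares 874 exonic bases with a lincRNA on the other strand.

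MAPK6 had a gene-scaled log2 fold change of 0.19 in 0.1% serum (SE 0.11, adjusted p = 0.172). DMXL2 and AP4E1 were each drawn up by 1 library. DMXL2 was 18.5, 20.1 and 36.6 CPM in ΔLEO1 and 19.2 to 23.6 CPM in WT, and AP4E1 was 19.4, 21.2 and 30.6 CPM in ΔLEO1 and 17.1 to 23.0 CPM in WT. In both the highest value was that of library 12, and neither passed the test (gene-scaled 0.27 and 0.25, adjusted p = 0.359 and 0.279). Without the highest-numbered libraries the gene-scaled values were −0.13 for DMXL2 and −0.04 for AP4E1.

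**Figure D2:**
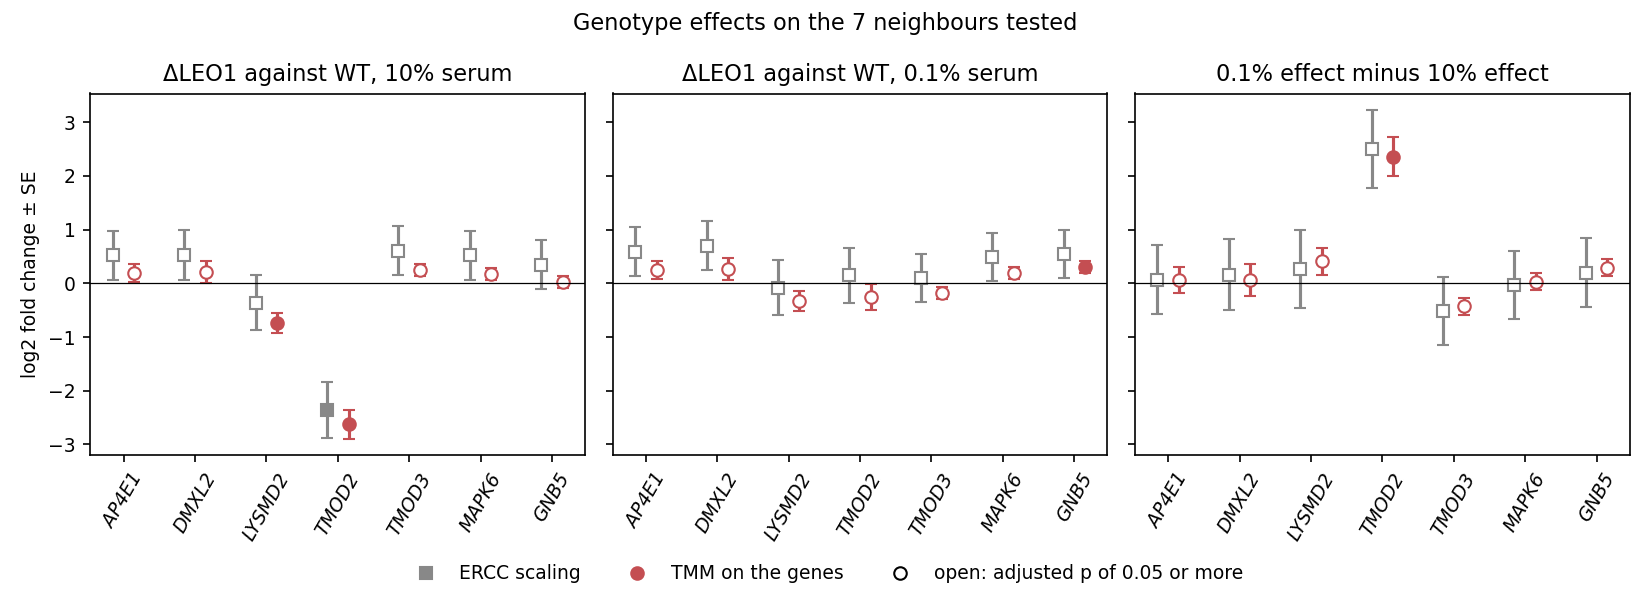
Log2 fold change (± SE) of the 7 neighbours tested, in chromosome order, for ΔLEO1 against WT in 10% serum, the same in 0.1% serum, and the difference of these effects. Grey squares are ERCC-scaled and red circles gene-scaled values, and open symbols have an adjusted p of 0.05 or more. TMOD2 stands at −2.36 and −2.62 in 10% serum and at 0.15 and −0.26 in 0.1% serum, and LYSMD2 reaches −0.74 with gene scaling in 10% serum.

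The difference between the sera was tested directly, as the interaction of genotype and serum. For TMOD2 the effect in 0.1% serum was higher than that in 10% serum by 2.36 on the log2 scale with gene scaling (SE 0.36, 95% interval 1.65 to 3.06 before adjustment, adjusted p = 2.23e-08), the 1 neighbour called, where 4.08% of all genes were. It was called with each of the 12 libraries left out, between 2.10 and 2.63, and 57 genes had a higher value. With ERCC scaling the difference was 2.50 (SE 0.73, unadjusted p = 0.000724, adjusted p = 0.165), and no neighbour was called, where 0.219% of all genes were. Leaving out ΔLEO1 library 11 brought it to 2.89 and an adjusted p of 0.00564, and leaving out ΔLEO1 library 12 to 1.59. The size of the difference was thus alike on both scalings while the call was not. TMOD3 had the largest difference the other way, −0.43 gene-scaled (SE 0.16, adjusted p = 0.104), called in 2 of the 12 fits with a library left out, those without WT library 9 or ΔLEO1 library 12. Without the highest-numbered libraries it was called at −0.60 (adjusted p = 9.56e-09), and so was GNB5 at 0.34 (adjusted p = 0.0109). That fit keeps the similar pairs alone, and the share of all genes called in it is not given. The other 5 neighbours lay between 0.03 and 0.41 with gene scaling, with LYSMD2 highest (SE 0.25, adjusted p = 0.529).

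Serum was also compared within each genotype. With ERCC scaling the median log2 fold change of all genes from 10% to 0.1% serum was −0.97 in WT and −1.05 in ΔLEO1. In ΔLEO1 cells TMOD2 rose from 10% to 0.1% serum, from 0.807 ± 0.258 to 3.61 ± 1.14 CPM (n = 3 each), and the libraries of the 2 sera did not overlap in CPM, as for 27.3% of all genes tested in that direction. Gene-scaled, its log2 fold change came to 2.08 (SE 0.27, adjusted p = 6.19e-13), called with each library left out, with 180 genes higher. With ERCC scaling it was 1.21 (SE 0.53, adjusted p = 0.0473), and 0.975% of all genes were called as higher. That call held in 2 of 12 fits with a library left out, those without WT library 3 (a group that shares the estimate of the spread) or ΔLEO1 library 11, and the value fell to 0.31 without ΔLEO1 library 12. In WT cells TMOD2 was 4.97 ± 0.349 CPM in 10% serum and 4.34 ± 0.539 CPM in 0.1% serum. Its log2 fold change there was −1.29 with ERCC scaling (SE 0.51, adjusted p = 0.0405) and −0.27 gene-scaled (SE 0.24, adjusted p = 0.39), where the median of all genes was −0.97 and 0 on the same scales. The serum comparisons and the genotype comparisons share their libraries.

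With ERCC scaling TMOD2, MAPK6, GNB5 and AP4E1 were called lower in 0.1% serum in WT, 4 of 7 tested, where 36.1% of all genes were. In ΔLEO1 the genes called lower were TMOD3, MAPK6, GNB5 and AP4E1, again 4 of 7, where 47.2% of all genes were. Gene-scaled, MAPK6 fell in both genotypes, by 0.31 on the log2 scale in WT (SE 0.11, adjusted p = 0.0214) and by 0.28 in ΔLEO1 (SE 0.11, adjusted p = 0.0398). GNB5 fell by 0.32 in WT (SE 0.11, adjusted p = 0.0195) and stood at −0.02 in ΔLEO1 (SE 0.11, adjusted p = 0.899). AP4E1 fell by 0.47 in WT (SE 0.17, adjusted p = 0.0217) and missed the threshold in ΔLEO1 at −0.41 (SE 0.17, adjusted p = 0.0522). LYSMD2 rose by 0.48 in ΔLEO1 with gene scaling (SE 0.18, adjusted p = 0.034) and stood at 0.07 in WT (SE 0.18, adjusted p = 0.811). On the gene scale 12.9% of all genes were called lower and 16.5% higher in ΔLEO1, and 16.6% and 16.0% in WT. These small changes rested on single libraries: without WT library 1, 3, 8 or 9 none of the 3 calls in WT remained, without WT library 2 that of GNB5 was lost, MAPK6 in ΔLEO1 was called in 4 of 12 fits (largest adjusted p = 0.168), and LYSMD2 was called in 7 of 12 fits in ΔLEO1, not without WT 2, ΔLEO1 4, ΔLEO1 5, ΔLEO1 11 or ΔLEO1 12 (largest adjusted p = 0.175). The ERCC-scaled counts of calls were no firmer, from 0 to 6 of the 7 in either genotype, with 0 in WT without WT library 1, 2, 7 or 9 and 0 in ΔLEO1 without ΔLEO1 library 4 or 10.

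**Figure D3:**
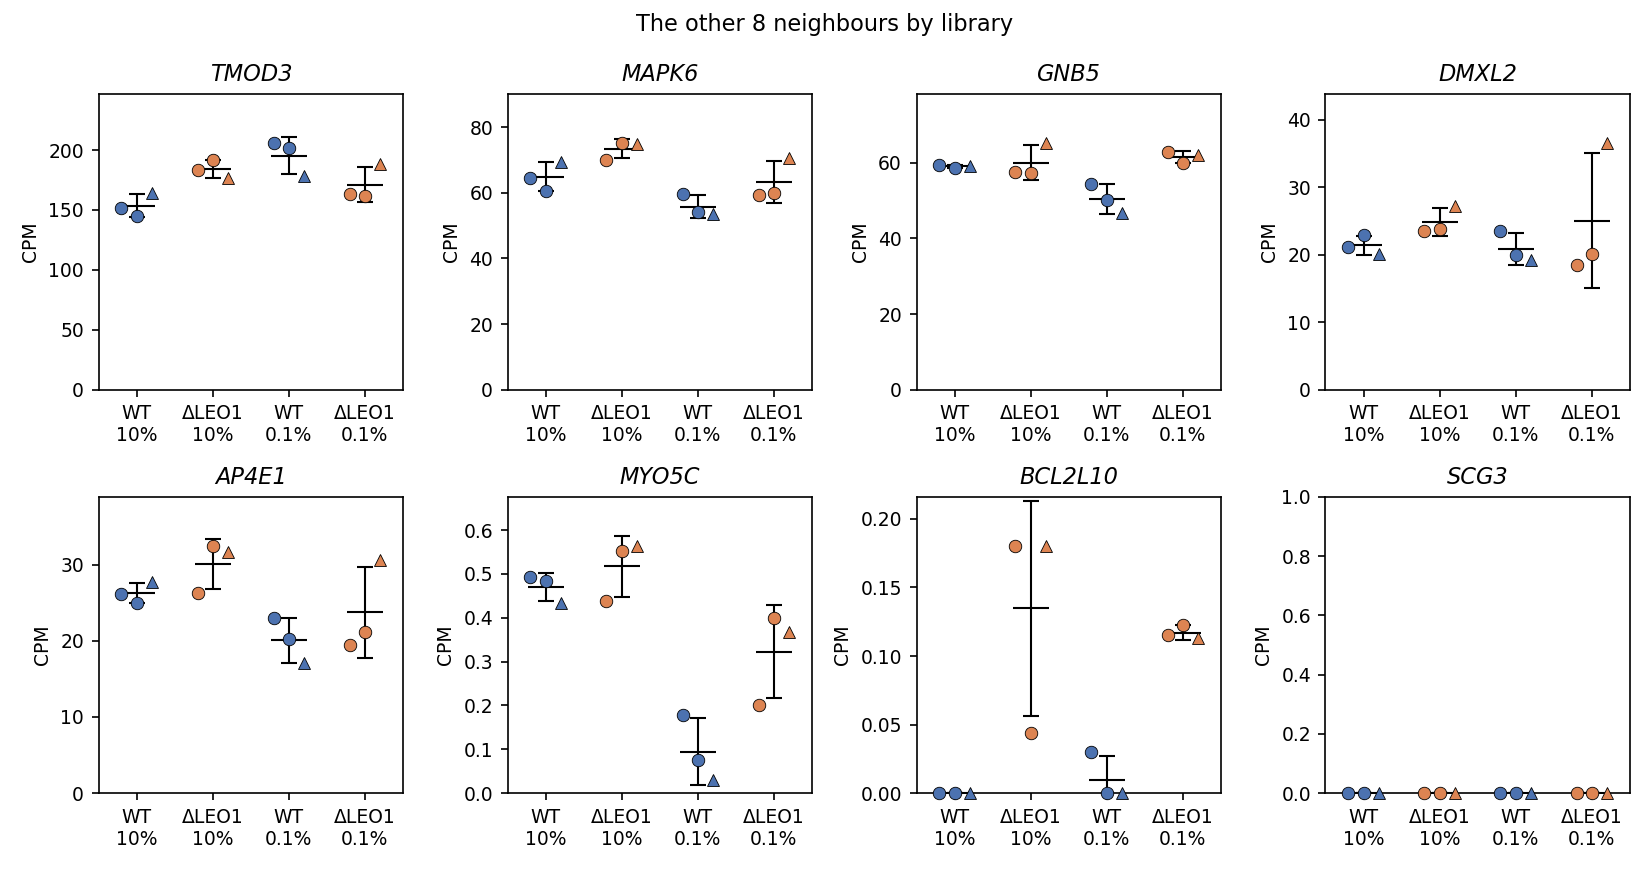
Level in CPM of the other 8 neighbours in each library of WT (blue) and ΔLEO1 (orange) cells, drawn as for TMOD2, with triangles for the highest-numbered library of each group and mean and SD of 3 libraries. DMXL2 and AP4E1 have their highest value of the 0.1% serum groups in 1 ΔLEO1 library (36.6 and 30.6 CPM), and SCG3 has no count in any library.

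The 3 neighbours below the filter are described by their counts. SCG3 had no count in any of the 12 libraries, which allows up to 3 counts in each, or 0.114 CPM in the smallest library, a limit that covers counting error only. MYO5C had 18, 19 and 17 counts in WT and 17, 25 and 25 in ΔLEO1 in 10% serum, which overlap. In 0.1% serum it had 6, 2 and 1 counts in WT and 7, 13 and 13 in ΔLEO1, means of 0.0948 ± 0.0759 and 0.323 ± 0.107 CPM. Every ΔLEO1 library was higher there (exact two-sided permutation test on CPM, p = 0.1, the smallest possible). In that serum the genotypes did not overlap, in either direction, for 41.6% of all genes tested. Between the sera MYO5C went from 0.471 ± 0.0324 to 0.0948 ± 0.0759 CPM in WT and from 0.518 ± 0.0689 to 0.323 ± 0.107 CPM in ΔLEO1. With ERCC scaling it was called lower in 0.1% serum in both genotypes when no filter or edgeR's own filter on low counts was used. With the main filter 36.1% of all genes tested were called lower in WT and 47.2% in ΔLEO1. BCL2L10 had no count in the 3 WT libraries in 10% serum and 7, 2 and 8 counts in ΔLEO1. Its mean level in ΔLEO1 was 1.72-fold that of WT set to the floor of 3 counts per library. This ratio leaves out the counting error in ΔLEO1 and is no lower limit. One ΔLEO1 library, with 2 counts, was itself below that floor. In 0.1% serum BCL2L10 had 1, 0 and 0 counts in WT and 4, 4 and 4 in ΔLEO1, 1.2-fold on the same floor. The gene had a count in all 6 ΔLEO1 libraries and in 1 of 6 WT libraries, at levels no higher than 0.18 CPM, and the exact permutation test gave p = 0.1 in each serum. Of all genes tested, 29.8% were likewise higher in every ΔLEO1 library in 10% serum. In 0.1% serum 41.6% did not overlap, in either direction.

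Per length of annotated exon, the order of the neighbours in WT in 10% serum was TMOD3 (14.4 ± 0.917 CPM per kb), MAPK6 (10.2 ± 0.694), GNB5 (4.44 ± 0.0352), AP4E1 (3.57 ± 0.188), LYSMD2 (2.09 ± 0.247), DMXL2 (1.55 ± 0.101), TMOD2 (0.427 ± 0.03) and MYO5C (0.0469 ± 0.00323). Each lay apart from the next by more than their SDs. In ΔLEO1 in 10% serum GNB5 (4.52 ± 0.338) and AP4E1 (4.09 ± 0.451) lay within their spread, DMXL2 (1.80 ± 0.151) stood above LYSMD2 (1.26 ± 0.115), and TMOD2 (0.0693 ± 0.0222) came down to the level of MYO5C (0.0515 ± 0.00686). In WT in 0.1% serum the order was the same as in 10% serum, from TMOD3 (18.4 ± 1.41) to TMOD2 (0.373 ± 0.0463) and MYO5C (0.00943 ± 0.00756), with AP4E1 (2.73 ± 0.4) and LYSMD2 (2.32 ± 0.0717) within their spread. In WT TMOD3 was thus far more abundant per length than TMOD2, its paralogue next door.

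Few stretches of the neighbours occur in other genes as well. Of the 58-base stretches in the annotated transcripts, 0.204% of those of TMOD2, none of those of LYSMD2 and 0.224% of those of LEO1 also occurred in a transcript of another gene, on either strand. The share was 5.08% for TMOD3, 5.81% for MAPK6 and 7.57% for GNB5, the highest of the 10.

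The 4 other genes of the window that passed the filter lie on the 5′ side of LEO1. CERNA1 overlaps GNB5 and MYO5C on the other strand, and MYO5A, ARPP19 and ATOSA lie beyond MYO5C. CERNA1, MYO5A, ARPP19 and ATOSA had gene-scaled log2 fold changes of −0.31, 0.15, 0.06 and 0.16 in 10% serum, and none was called (adjusted p from 0.447 to 0.697). In 0.1% serum ARPP19 was called higher at 0.33 (SE 0.10, adjusted p = 0.00775), and CERNA1, MYO5A and ATOSA lay at 0.24, 0.22 and 0.15 (adjusted p from 0.312 to 0.661). With ERCC scaling none of the 4 was called. The 7 tested neighbours and these 4 are the 11 genes tested within 1 Mb of LEO1. Their median gene-scaled log2 fold change was 0.15 in 10% serum and 0.22 in 0.1% serum, with 18.2% called in each. The 36 genes at 1 to 5 Mb had medians of −0.05 and −0.10, with 27.8% and 16.7% called, and the 12811 genes of other chromosomes medians of 0.01 and 0.02, with 39.6% and 33.2% called.

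**Figure D4:**
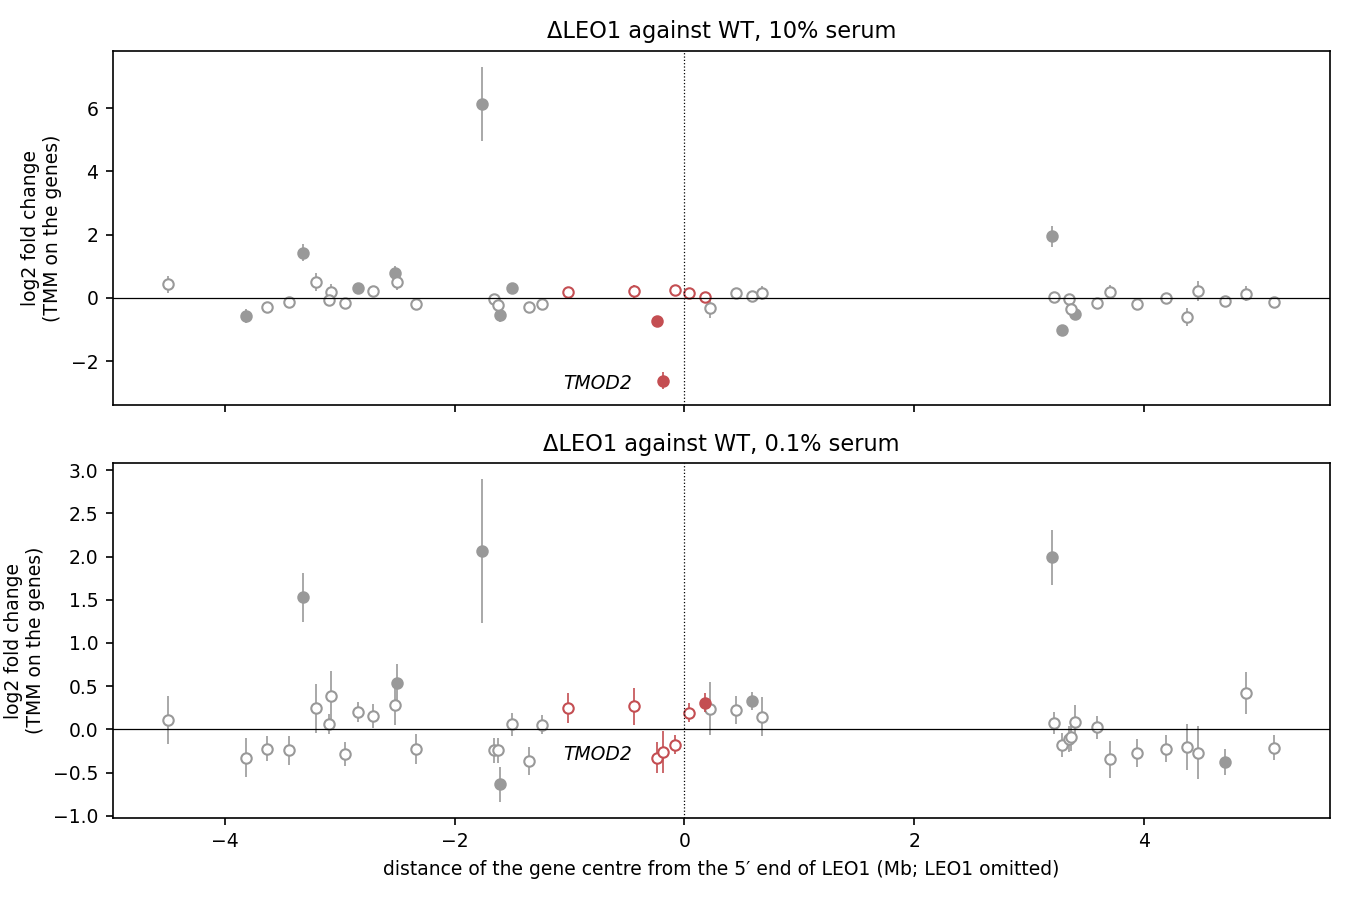
Gene-scaled log2 fold change (± SE) of ΔLEO1 against WT for the 47 genes tested within 5 Mb of LEO1, by the distance in Mb of the gene's centre from the 5′ end of LEO1 (dotted line), in 10% serum and in 0.1% serum. The 7 neighbours are red and filled symbols have an adjusted p under 0.05. TMOD2 is the lowest point in 10% serum, at −2.62, and the next lowest lies at −1.01. The highest point is SLC27A2, at 6.13 in 10% serum and 2.06 in 0.1% serum.

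Partners and paralogues of the neighbours made up 57 genes, of which 44 were tested. With ERCC scaling 2 were called higher and 2 lower in ΔLEO1 in 10% serum, and 3 and 3 in 0.1% serum, where 8.84% and 7.43% of all genes were called. With gene scaling 6 were higher and 10 lower in 10% serum, and 10 higher and 6 lower in 0.1% serum, where 39.5% and 33.0% of all genes were called. Among the 6 tested genes of the pointed-end and tropomyosin list, TMOD1, the third tropomodulin tested, was lower in both sera, from 4.84 to 1.59 CPM in 10% serum (gene-scaled log2 fold change −1.60, adjusted p = 0.015) and from 14.3 to 4.09 CPM in 0.1% serum (−1.78, adjusted p = 0.00748). With ERCC scaling it was called in 0.1% serum (−1.85, adjusted p = 0.00632) and not in 10% serum (−1.30, adjusted p = 0.105). Of the G protein list, RGS7BP, which binds RGS proteins of the kind that pair with GNB5, had 0.00914 CPM in WT and 13.9 CPM in ΔLEO1 in 10% serum, and 0 and 6.14 CPM in 0.1% serum (adjusted p = 6.24e-30 and 1.46e-25, ERCC-scaled). RGS7, one of those RGS proteins, was higher in ΔLEO1 by a gene-scaled 1.15 and 1.70 in the 2 sera (adjusted p = 3.62e-05 and 3.34e-08), and with ERCC scaling by 1.46 (adjusted p = 0.051) and 2.15 (adjusted p = 0.00163). In the list of granins and prohormone processing CPE, a carboxypeptidase of secretory granules, fell from 2.78 to 0.0247 CPM in 10% serum and from 33.5 to 0.205 CPM in 0.1% serum (adjusted p = 1.35e-14 and 1.34e-23, ERCC-scaled).

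In the other lists the partners named here were called in both sera with gene scaling, and in at most 1 serum with ERCC scaling. AP4S1, the small subunit of AP-4, stood at 0.93 and 0.95 (gene-scaled log2, adjusted p = 4.02e-09 and 2.5e-09) while AP4E1 did not pass the test. MLPH and RAB8A, which work with class V myosins, stood at −0.94 and −2.24 (adjusted p = 0.035 and 3.54e-07) and at 0.33 and 0.35 (adjusted p = 0.0116 and 0.00812). BAX and BCL2L2, relatives of BCL2L10, were lower by −0.66 and −0.90 and by −0.46 and −0.40 (largest adjusted p = 0.0135). LYSMD3, a paralogue of LYSMD2, was higher by 0.29 and 0.36 (adjusted p = 0.0167 and 0.00278), the opposite side to LYSMD2.

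Over the 12 libraries, the genes whose log2 CPM followed that of TMOD3 most closely were SMARCD1 (Pearson r = 0.983), MSANTD4 (0.903) and FAM234B (0.887). None of these 3 lies on chromosome 15, and these libraries share 4 groups and the library that stands apart in each, so the values are a description.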

How the data were processed

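The deposited files hold raw counts per gene and per ERCC transcript for 12 libraries. Per the labels and the paper, the authors prepared poly(A) RNA with a stranded kit, read 58-base pairs, aligned them with STAR (2.7.10a in the submitters' processing notes) to GRCh38 with the ERCC sequences, and counted with featureCounts 1.5.1. The annotation release and the strand setting are not given in the sources used here. Counts were tested in R 4.3.3 with edgeR 4.0.16 (likelihood ratio test, two-sided, Benjamini-Hochberg adjustment). All 12 libraries entered 1 fit of 4 group means, after a filter that kept genes above 1 CPM in at least 3 libraries, with effective library sizes from the ERCC totals and their TMM factors. Alternatives were the quasi-likelihood test, DESeq2 1.42.0, scaling on the genes, other filters, and libraries left out. Of the 60671 identifiers 60401 were in the names table and 58453 in GENCODE v29. The text names all 10 neighbours, the other tested genes of the window, up to 2 partners per list called in both sera, and the 3 genes most like TMOD3. Those most like MAPK6 are not reported here. The neighbours and all lists were chosen with earlier results of these data known. CPM intervals and floors cover counting error only.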

Additional observations from a re-analysis of the deposited data

Results flagged for a closer look

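The genotype effect on TMOD2 differed between the sera. The difference of the log2 fold changes was 2.36 with gene scaling (adjusted p = 2.23e-08, edgeR's likelihood ratio test of the interaction). In 10% serum 3 of 3 ΔLEO1 libraries lay below every WT library, and in 0.1% serum 2 of 3 did. With ERCC scaling the difference was 2.50 and did not pass the adjustment (adjusted p = 0.165).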

How the results depend on the processing

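No paired analysis was possible because the labels number the libraries from 1 to 12, so that no number is shared between groups. The share of all genes called is given above for the main fit and for TMM on the genes. For the other fits it is not given, so their counts describe the settings and are no result about the neighbours. With each library left out in turn, 1 neighbour was called in 10% serum in every fit, 0 in 0.1% serum, 0 to 1 in the interaction, and 0 to 6 in the serum comparison of either genotype. In 10% serum, where 1 was called, scaling on the genes by TMM or by DESeq2 size factors gave 2, no filter 2 (TMOD2 and BCL2L10), the similar pair of each group summed 0, and, among alternatives chosen after seeing the data, TMM with the quasi-likelihood test 3 and TMM without the highest-numbered libraries 4 (TMOD2 and LYSMD2 lower, TMOD3 and MAPK6 higher). In 0.1% serum, where 0 were called, both gene scalings gave 1, TMM with the quasi-likelihood test 1 and TMM without the highest-numbered libraries 4 (TMOD3, TMOD2 and LYSMD2 lower, GNB5 higher). In the interaction these gave 1, 1 and 3 (TMOD2 and GNB5 higher, TMOD3 lower). For serum in WT, where 4 were called, a threshold of 0.01 and the summed pairs gave 0. For serum in ΔLEO1, where 5 were called, the quasi-likelihood test, both gene scalings, no filter and TMM with the quasi-likelihood test gave 3, and the fit of the compared libraries alone, the threshold of 0.01 and the summed pairs 0.

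The log2 fold changes below changed sign. With TMM and with DESeq2 size factors on the genes they were, in 0.1% serum, −0.26 and −0.25 for TMOD2 and −0.18 and −0.17 for TMOD3. In the interaction MAPK6 was 0.03 and 0.02. For serum in WT they were 0.10 and 0.11 for LEO1, 0.07 and 0.07 for LYSMD2 and 0.26 and 0.26 for TMOD3, and in ΔLEO1 0.48 and 0.48 for LYSMD2. With TMM and without the highest-numbered libraries the values in 0.1% serum were −0.04 for AP4E1, −0.13 for DMXL2, −0.50 for TMOD2 and −0.28 for TMOD3, GNB5 was −0.05 in 10% serum, and the interaction was −0.23 for AP4E1 and −0.22 for DMXL2. For serum they were 0.08 for GNB5 and 0.50 for LYSMD2 in ΔLEO1, and 0.26 for LEO1, 0.18 for LYSMD2 and 0.37 for TMOD3 in WT. With ERCC scaling and without those libraries, in 0.1% serum, AP4E1 was −0.47, DMXL2 −0.55, GNB5 −0.12, MAPK6 −0.30, TMOD2 −0.91 and TMOD3 −0.70, and in the interaction AP4E1 was −0.89, DMXL2 −0.90, GNB5 −0.34 and LYSMD2 −0.44. With 1 library left out in turn and ERCC scaling, values in 0.1% serum ran from −0.24 to 0.96 for AP4E1, −0.35 to 1.09 for DMXL2, −0.13 to 0.83 for MAPK6, −0.76 to 0.54 for TMOD2, −0.50 to 0.44 for TMOD3 and −0.69 to 0.20 for LYSMD2. In the interaction they ran from −0.76 to 0.44 for AP4E1, −0.89 to 0.56 for DMXL2, −0.28 to 0.52 for GNB5, −0.33 to 0.56 for LYSMD2, −0.65 to 0.31 for MAPK6 and −1.04 to 0.08 for LEO1. In 0.1% serum the lower end was the fit without ΔLEO1 library 12 and the upper end that without ΔLEO1 library 11 for each of these genes. With the similar pairs summed the interaction was 0.14 for LEO1 and 0.24 for MAPK6, and LYSMD2 was 0.26 in 0.1% serum. Among these, the values of TMOD2 and TMOD3 in 0.1% serum, and of LEO1 and TMOD3 for serum in WT, passed the threshold with TMM and without the highest-numbered libraries, and LYSMD2 for serum in ΔLEO1 passed it on each gene scaling. GNB5 for serum in ΔLEO1 passed it with ERCC scaling (−1.08) and not on the gene scale. The other values that changed sign passed it on neither side. The cause was not tested.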
